A study of Homo sapiens with 4 samples.

Results

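MIR21, MIR221 and MIR222 are the genes of the microRNAs miR-21, miR-221 and miR-222. They were taken by symbol from the platform annotation of a whole-transcript expression array, which gave 1 probe set for each, so 3 of the 14884 genes measured are described here. All cells were LS411N-5FU-R, a line of human colon carcinoma cells made resistant to 5-fluorouracil (5-FU), a drug against colorectal cancer, from the metastatic line LS411N. A pair of arrays came from cells treated with 50 nM verticillin A for 3 days and a pair from control cells kept without it (0 nM) for the same time. Verticillin A is an epipolythiodioxopiperazine made by fungi. Both groups therefore carry the 5-FU resistance, and this 1 derived line, with no parental cells beside it, is the whole model. The series deals with histone H3 lysine 9 trimethylation and FAS in immune escape and 5-FU resistance, and its comparison asks which transcripts differ in resistant cells after verticillin A.

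A microRNA is cut by DROSHA and then DICER1 out of a hairpin in a longer primary transcript, and the mature strand guides Argonaute to messenger RNAs that pair with its seed, usually lowering them. miR-21 is abundant in many carcinomas, colorectal ones included, and represses the tumour suppressor gene PDCD4 among others. miR-221 and miR-222 are cut from 1 primary transcript on the X chromosome and are best known for repressing cell cycle inhibitors and pro-apoptotic genes. The array labels cDNA made from total RNA, so a probe set at a hairpin can report the primary transcript, the hairpin or both, and the values say nothing of the mature strand, which was not measured apart.

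The mature sequences are shown because they define what each gene makes and which of them share targets. RefSeq sequences (GRCh38.p14) were matched by symbol for 3 of the 3 genes, and for MIR590 in addition. Capitals mark the seed, bases 2 to 8 from the 5′ end.
hsa-miR-21-5p: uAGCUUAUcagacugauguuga
hsa-miR-590-5p: gAGCUUAUucauaaaagugcag
hsa-miR-221-3p: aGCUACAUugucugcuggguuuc
hsa-miR-222-3p: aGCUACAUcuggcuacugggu
hsa-miR-222-5p: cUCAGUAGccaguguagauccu
miR-221-3p and miR-222-3p have the same seed and the same 8 leading bases, and 11 of 21 ungapped positions are identical. miR-21-5p shares its seed with miR-590-5p, the product of a gene on another chromosome, and 8 of their 22 positions are identical. Among 2370 mature sequences of the table, 2 hold each of these seeds, so miR-21-5p and miR-590-5p form one seed group and miR-221-3p and miR-222-3p the other.

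The hairpins show the region that the gene annotation assigns to each microRNA, with the mature sequences above in capitals; hsa-miR-21-3p and hsa-miR-221-5p are not shown. MIR21 lies on chr17:59841266-59841337, plus strand, inside the annotated bounds of VMP1, and MIR221 and MIR222 lie on chrX:45746157-45746266 and chrX:45747015-45747124, minus strand, inside those of the long non-coding RNA gene MIR222HG. The 2 hairpins of the X-linked pair are 748 bases apart.
MIR21 hairpin: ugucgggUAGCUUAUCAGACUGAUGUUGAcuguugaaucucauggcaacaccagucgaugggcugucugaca
MIR221 hairpin: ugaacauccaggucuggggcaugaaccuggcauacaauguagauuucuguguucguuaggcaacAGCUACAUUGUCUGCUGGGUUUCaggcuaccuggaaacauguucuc
MIR222 hairpin: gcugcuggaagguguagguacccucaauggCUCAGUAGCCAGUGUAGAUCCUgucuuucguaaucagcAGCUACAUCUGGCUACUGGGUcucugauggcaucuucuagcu

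The deposited log2 values had medians of 4.61 and 4.60 on the verticillin A arrays and 4.59 and 4.62 on the control arrays. Arrays of 1 group correlated at r = 0.995 (verticillin A) and 0.994 (control) across probe sets, and arrays of different groups at 0.990 to 0.992. Of 12 measured markers of colon epithelium, EPCAM (means of 10.94 with verticillin A and 11.11 in control), KRT18 and CLDN7 were far above the array medians, whereas the colon markers CEACAM5, TSPAN8 and CDX1 were below the array medians in both groups. The 3 measured fibroblast and 4 measured leukocyte markers had mean levels of 3.48 to 4.63 with verticillin A and 3.42 to 4.58 in control, close to or below the array medians. The labels do not state whether replicate arrays stem from independent cultures, and the p-values reflect only the scatter of these samples, possibly technical. Over all genes limma called 528 (3.55%) higher and 759 (5.1%) lower with verticillin A, together 8.65% of the 14884 tested, and 750 higher and 668 lower after centring each array on its median. Without control replicate 1 or control replicate 2 it called 0 genes, with 3715 and 3528 at an unadjusted p under 0.05, and 139 and 153 without verticillin A replicates 1 and 2.

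MIR21 was lower with verticillin A, and MIR221 and MIR222 were both higher. The 3 genes were picked with their values on these arrays already known, so their levels and differences are a description and carry no test. MIR21 had log2 levels of 9.87 and 9.84 on the verticillin A arrays, against 10.45 and 10.60 on the control arrays. Both treated arrays were below both control arrays, and the gap between the groups, 0.58, was wider than the spread inside either one, 0.03 with verticillin A and 0.15 in control. The means were 9.85 ± 0.02 with verticillin A and 10.53 ± 0.11 in control (SD, n = 2 each), a log2 difference of -0.67, or 1.60-fold lower. In bulk RNA, fewer cells with a transcript and less of it per cell cannot be told apart.

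MIR221 had log2 levels of 9.85 and 9.88 with verticillin A, against 9.23 and 9.39 in control. Both treated arrays were above both control arrays, by a gap of 0.46, and the control pair was again the more scattered. Its means were 9.86 ± 0.02 with verticillin A and 9.31 ± 0.11 in control (SD, n = 2 each), a difference of 0.56, or 1.47-fold higher. MIR222, its partner in the cluster, had 7.41 and 7.44 with verticillin A, against 7.0 and 6.97 in control. The treated arrays were again above the control arrays, with a gap of 0.40 and means of 7.43 ± 0.03 with verticillin A and 6.99 ± 0.03 in control (SD, n = 2 each), a difference of 0.44, or 1.36-fold higher. The genes of the cluster thus had differences of the same sign and of 0.56 and 0.44 on the log2 scale, while that of MIR21 had the opposite sign. Groups that do not overlap are common on these arrays: both treated arrays lay above both control arrays in 25.7% of all genes and below them in 29.1%. In size, 286 of 14884 genes had a larger absolute difference than MIR21, 532 a larger one than MIR221 and 1013 a larger one than MIR222. With any 1 array left out, the difference was -0.75 to -0.60 for MIR21, 0.48 to 0.64 for MIR221 and 0.42 to 0.46 for MIR222.

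**Figure D1:**
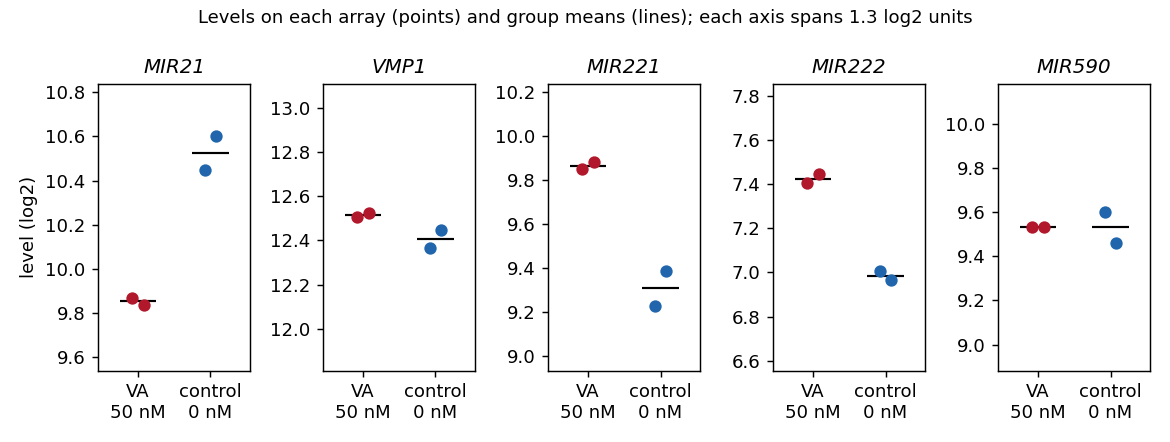
Log2 level of MIR21, VMP1, MIR221, MIR222 and MIR590 on each array (points: verticillin A 50 nM in red on the left, control 0 nM in blue on the right) with group means as lines; every vertical axis spans the same number of log2 units but starts at a different level. MIR21 is lower and MIR221 and MIR222 are higher with verticillin A without overlap, VMP1 differs by 0.11 and the 2 groups of MIR590 overlap.

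The genes around the members were read next, since a microRNA gene can be transcribed with its neighbours. VMP1, which encodes a membrane protein of autophagosome formation and overlaps MIR21, had log2 levels of 12.50 and 12.53 with verticillin A, against 12.36 and 12.45 in control. Its treated arrays were slightly above its control arrays, on the other side from MIR21, and it did not pass in limma (log2 change 0.11 ± 0.07, SE, adjusted p = 0.40). Of the 10 nearest genes of MIR21 in the RefSeq order, 2 were measured, VMP1 and the helicase gene DHX40, which also did not pass (-0.15 ± 0.07, adjusted p = 0.234). Of the 10 nearest genes of MIR221 and of MIR222, 1 each was measured, the partner microRNA itself, and MIR222HG is not analysed here. MIR590, whose miR-590-5p shares the seed of miR-21-5p, had 9.53 and 9.53 with verticillin A, against 9.60 and 9.46 in control. Its groups overlapped and it did not pass (0.00 ± 0.08, SE, adjusted p = 0.991).

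The start region of MIR222HG, the annotated host of both X-linked hairpins, is shown because MIR221 and MIR222 had differences of the same sign. It covers 250 bases before to 50 bases after the annotated start (RefSeq, GRCh38.p14, chrX:45770218-45770517, minus strand), written along the gene, with motif matches in capitals.
MIR222HG promoter: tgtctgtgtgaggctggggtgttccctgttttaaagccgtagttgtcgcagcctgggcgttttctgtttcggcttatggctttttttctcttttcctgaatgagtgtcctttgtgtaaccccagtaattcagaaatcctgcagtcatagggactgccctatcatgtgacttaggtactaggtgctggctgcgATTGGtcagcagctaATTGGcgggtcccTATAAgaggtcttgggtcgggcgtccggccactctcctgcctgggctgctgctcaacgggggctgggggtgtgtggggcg
Motifs were searched on both strands and chosen with the sequence in view. The CCAAT box (CCAAT) matched at 2 places on the opposite strand, beginning 58 and 43 bases before the start, and is found in 34.6% of 35116 promoter windows of this length. TATAA matched once, 30 bases before the start (20.4% of windows). The AP-1 motif TGANTCA (7.71% of windows) and the STAT motif TTCNNNGAA (7.66%) had 0 matches in this window, which says only that these letters are not in it. No 2 matches overlapped.

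Transcription factors and signalling genes reported upstream of MIR21 or of the X-linked pair changed in both directions. Of 24 measured members of a list of 30, limma called 2 higher and 4 lower, 25% against 8.65% of all genes, with a median log2 change of -0.14 against -0.01 over all genes. With the dimmest 50% of genes left out, 9 of the 19 members kept were called, against 2399 of the 7442 genes kept. The list held subunits of AP-1, the dimeric factor that is a known activator of the MIR21 promoter. JUN, its central subunit, had log2 levels of 7.36 and 7.36 with verticillin A, against 8.35 and 8.48 in control. That gap made it the largest change of the list, 2.08-fold lower (-1.06 ± 0.08, SE, adjusted p = 0.00689). JUND had 8.17 and 8.31 with verticillin A, against 8.83 and 8.92 in control, and fell by 0.63 on the log2 scale (SE 0.08, adjusted p = 0.0179). FOSL1, the FRA-1 subunit, went the other way, with 8.41 and 8.40 on the verticillin A arrays, against 7.92 and 7.81 on the control arrays. It rose 1.45-fold (0.54 ± 0.07, SE, adjusted p = 0.0199), and its treated arrays lay clear of its control arrays. Of the 7 measured AP-1 subunit genes 1 rose, 2 fell and 4 did not pass, which were JUNB (-0.15), FOS (-0.35, adjusted p = 0.0537), FOSB (0.05) and FOSL2 (-0.21).

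STAT3, the interleukin-6 effector that activates MIR21 in several cell types, had 9.93 and 9.94 with verticillin A, against 10.34 and 10.42 in control, and was 1.36-fold lower (-0.45 ± 0.07, SE, adjusted p = 0.0269). SMAD4, the shared partner of the TGF-beta SMADs, fell by 0.36 (SE 0.07, adjusted p = 0.0391). ETS1, an ETS family factor that is also a reported target of miR-221 and miR-222, rose by 0.44 (SE 0.07, adjusted p = 0.0266). NFIB, a reported repressor of MIR21, had a change of -0.29 and missed the threshold (adjusted p = 0.0591), as did NFKB1 (-0.21), RELA (-0.06), SMAD2 (-0.18), SMAD3 (0.17) and EGFR (-0.25). Without verticillin A replicate 1 or 2, JUN alone of these 6 calls passed, and none did without control replicate 1 or 2. None passed either when all 53617 probe sets were fitted and adjusted together. In that last fit 9 of the 24 had an unadjusted p under 0.05, against 3128 of all 14884 genes.

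**Figure D2:**
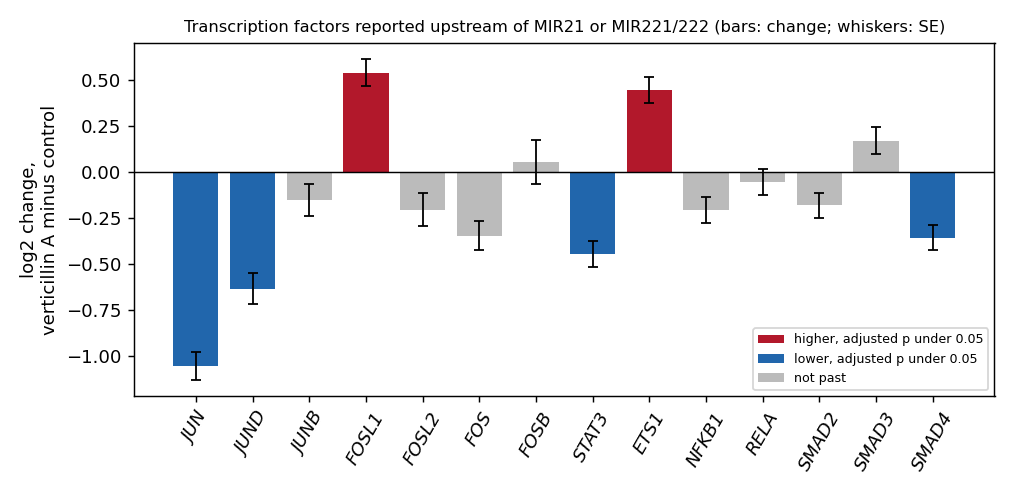
Log2 change (verticillin A minus control, linear axis of log2 units from 0, whiskers are SE) of 14 measured transcription factor genes from the list of upstream regulators, in red where higher, blue where lower and grey where limma's adjusted p missed 0.05. JUN, JUND, STAT3 and SMAD4 are below 0 and FOSL1 and ETS1 above it; the remaining 8 genes did not pass.

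Reported targets of miR-21 were lower more often than higher. Of 20 measured members of a list of 31, limma called 1 higher and 4 lower, 25% against 8.65% of all genes. Their median log2 change was -0.19, against -0.01 over all genes, and both treated arrays lay below both control arrays for 12 of the 20 and above them for 5, against 29.1% below and 25.7% above over all genes. When the dimmest 50% of genes were left out, 7 of the 16 targets kept were called, against 2399 of the 7442 genes kept. PDCD4, the translation inhibitor that is the best known target, had 8.13 and 8.16 with verticillin A, against 8.89 and 8.84 in control. It was 1.65-fold lower (-0.72 ± 0.07, SE, adjusted p = 0.00996), so PDCD4 and MIR21 were both lower on the treated arrays. TIAM1, a RAC activator, had 9.98 and 10.03 with verticillin A, against 10.48 and 10.54 in control, and fell by 0.50 (SE 0.07, adjusted p = 0.0206).

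MARCKS, an actin-binding substrate of protein kinase C, had 7.66 and 7.71 with verticillin A, against 8.19 and 8.16 in control, and fell by 0.49 (SE 0.07, adjusted p = 0.0207). RECK, an inhibitor of matrix metalloproteinases, had 7.04 and 7.05 with verticillin A, against 7.40 and 7.42 in control, and fell by 0.37 (SE 0.07, adjusted p = 0.0341). The groups of these genes did not overlap. CDC25A, the phosphatase that drives entry into S phase, had 8.12 and 8.29 with verticillin A, against 7.59 and 7.69 in control, and was the 1 that rose (0.57 ± 0.09, SE, adjusted p = 0.0249). Among the 15 that did not pass were NFIB, BCL2 (-0.32), PELI1 (-0.31), SPRY2 (-0.27), SMAD7 (0.28) and the mismatch repair gene MSH6 (0.26, adjusted p = 0.0872). None of the 5 calls held when any 1 array was left out or when all probe sets were fitted and adjusted together. In the fit of all probe sets 7 of the 20 had an unadjusted p under 0.05, against 3128 of all 14884 genes.

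Reported targets of miR-221 and miR-222 changed in both directions. Of 20 measured members of a list of 31, 1 was called higher and 3 lower, 20% against 8.65% of all genes, with a median of -0.02. Both treated arrays lay below both control arrays for 8 of the 20 and above them for 5, against 29.1% below and 25.7% above over all genes. Leaving out the dimmest 50% of genes, 4 of the 10 targets kept were called, against 2399 of the 7442 genes kept. DDIT4, a stress-induced inhibitor of mTORC1, had 7.99 and 8.0 with verticillin A, against 9.70 and 9.93 in control. It was 3.54-fold lower (-1.82 ± 0.10, SE, adjusted p = 0.00335), the deepest fall of either target list. BBC3, which encodes the pro-apoptotic protein PUMA, had 6.30 and 6.24 with verticillin A, against 6.61 and 6.70 in control, and fell by 0.38 (SE 0.07, adjusted p = 0.0387). RECK stands in both target lists, and ETS1, with 6.89 and 6.97 on the verticillin A arrays against 6.50 and 6.47 on the control arrays, was the gene that rose.

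The other 16 genes did not pass. They held the apoptosome gene APAF1 (0.02), TIMP3 (-0.15), FOXO3 (0.08), RB1 (-0.17) and BMF (0.08), while KIT, ICAM1, ESR1, TRPS1, ZEB2 and STAT5A had mean levels under the array medians in both groups. The cell cycle inhibitor genes CDKN1B and CDKN1C, the classic targets of this pair, are not analysed here. Of the 4 calls that of DDIT4 alone passed with all probe sets fitted and adjusted together, a fit that called 18 of all 14884 genes. In that fit 4 of the 20 targets had an unadjusted p under 0.05, against 3128 of all 14884 genes. No call of the 4 held each time 1 array was left out. The change of DDIT4 was then -1.94 to -1.71.

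**Figure D3:**
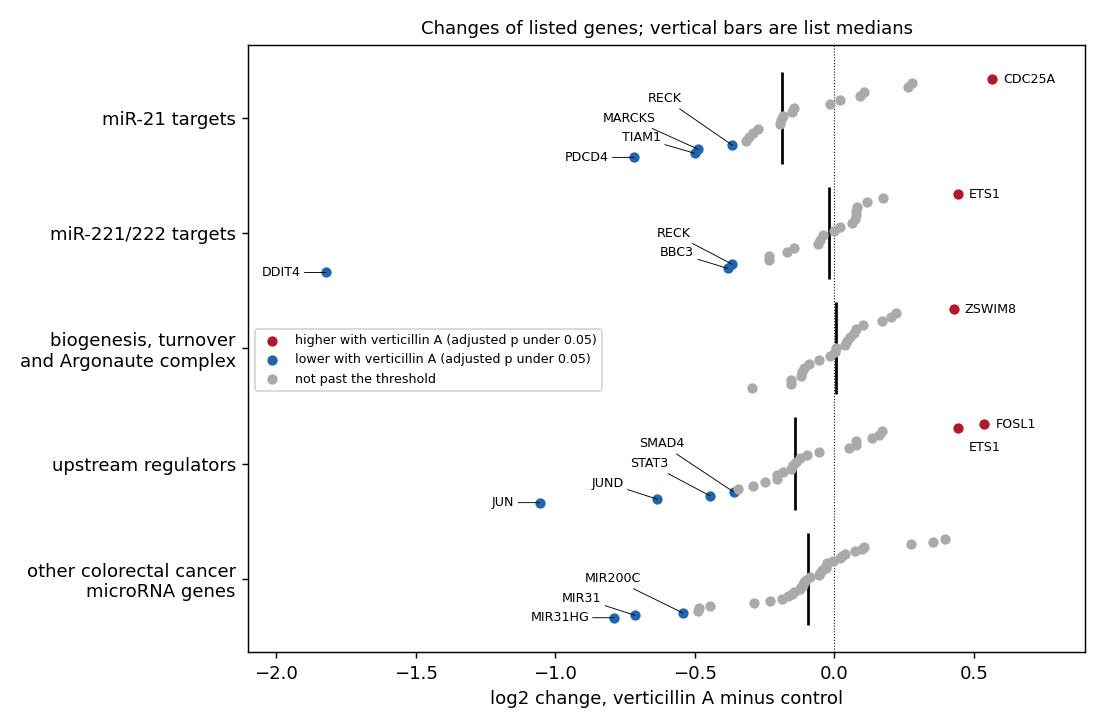
Log2 change (verticillin A minus control) of every measured gene of the 5 lists, 1 point per gene, sorted by change within a list; the vertical bars are the list medians and called genes are named. The called genes are mostly or all to the left in every list but that of the biogenesis genes, where 1 of 21 is called. Over all genes, too, more were called lower (759) than higher (528).

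Genes of microRNA production, turnover and the Argonaute complex held 1 call. Of 21 measured members of a list of 35, 1 rose and 0 fell, 4.76% against 8.65% of all genes, and the changes ranged from -0.30 to 0.43 with a median of 0.01. The gene that rose was ZSWIM8, the receptor of a ubiquitin ligase that removes Argonaute during target-directed microRNA decay. It had 7.20 and 7.29 with verticillin A, against 6.84 and 6.80 in control (0.43 ± 0.07, SE, adjusted p = 0.0302). DDX17, a helicase of the DROSHA complex, had a change of -0.30 (adjusted p = 0.0651), DGCR8, the partner of DROSHA, 0.10 and XPO5, the exporter of hairpins, -0.09. TENT4B and PARN, enzymes that lengthen and trim the tail of miR-21, had changes of 0.07 and 0.04, and DROSHA and DICER1 are not analysed here. The call of ZSWIM8 was lost when any 1 array was left out and when all probe sets were fitted and adjusted together. In the latter fit 2 of the 21 had an unadjusted p under 0.05, against 3128 of all 14884 genes.

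Among the other 1069 microRNA genes on the array, 20 were called higher and 34 lower, 5.05% against 8.65% of all genes, and their median change was -0.02. After centring on array medians the split was 28 higher and 27 lower. Most were dim: with the dimmest 50% of genes left out, 191 of the 1069 remained. Of those 191, 54 were called, against 2399 of the 7442 genes kept. Of all 1072 microRNA genes, 24 had a larger absolute difference than MIR21, 42 a larger one than MIR221 and 78 a larger one than MIR222. The largest called rises were those of MIR608 (0.82 ± 0.07), MIR328 (0.81 ± 0.07), MIR33B (0.66 ± 0.09), MIR181D (0.65 ± 0.10) and MIR4521 (0.64 ± 0.10, log2 change ± SE). With probe sets averaged the change of MIR4521 was 0.41. The largest called falls were those of MIR3115 (-1.09 ± 0.15), MIR3189 (-1.08 ± 0.17), MIR181B1 (-0.97 ± 0.12), MIR197 (-0.96 ± 0.20) and MIR4668 (-0.92 ± 0.08). Each of these 10 had an adjusted p between 0.00855 and 0.0449, and several were dim, such as MIR197 at 3.47 and 3.57 with verticillin A, against 4.18 and 4.78 in control. MIR181B1 has a paralogous copy, MIR181B2, with the same main mature product, and its probes may share RNA with it. The measured change of MIR181B2 was -0.07, and it did not pass. Few or none of the 1069 were called when any 1 array was left out. With all probe sets fitted and adjusted together limma called 0, with 162 at an unadjusted p under 0.05, against 3128 of all 14884 genes.

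**Figure D4:**
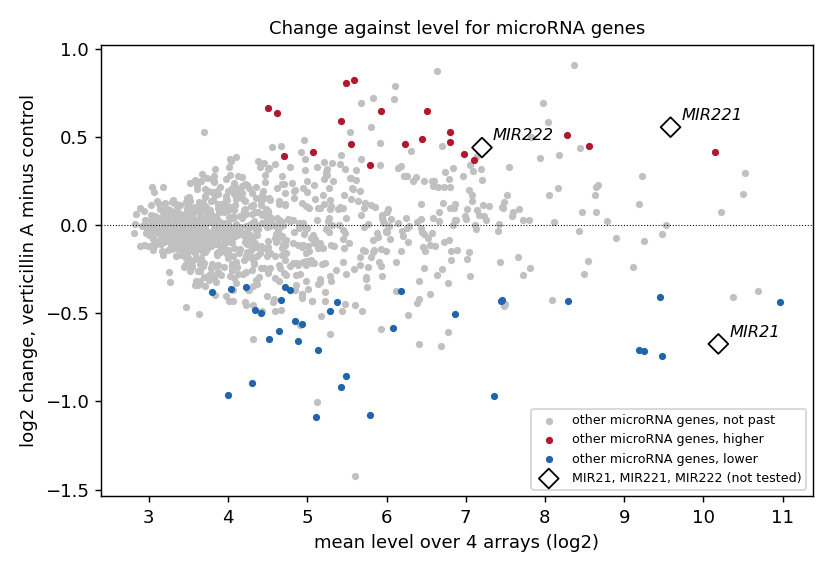
Log2 change (verticillin A minus control) against the mean log2 level over the 4 arrays for 1069 other microRNA genes (dots, red where called higher, blue where called lower, grey otherwise) and for MIR21, MIR221 and MIR222 (open diamonds, not tested). MIR21 is at a change of -0.67 and MIR221 and MIR222 at 0.56 and 0.44; levels of different probe sets are not comparable as amounts of RNA.

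Of 34 measured microRNA and host genes that are often discussed in colorectal cancer (a list of 46), 0 rose and 3 fell, 8.82% against 8.65% of all genes. MIR31, raised in many colorectal tumours, had 8.87 and 8.93 with verticillin A, against 9.46 and 9.76 in control, and fell by 0.71 (SE 0.11, adjusted p = 0.0267). Its host transcript MIR31HG had 6.97 and 6.76 with verticillin A, against 7.50 and 7.81 in control, and fell by 0.79 (SE 0.13, adjusted p = 0.0296). MIR31 and its host were thus lower together, whereas VMP1, which overlaps MIR21, did not pass (0.11 ± 0.07, SE, adjusted p = 0.40). MIR200C, which keeps ZEB1 and ZEB2 low in epithelial cells, had 4.54 and 4.61 with verticillin A, against 5.07 and 5.17 in control, and fell by 0.54 (SE 0.08, adjusted p = 0.0208). The treated values of MIR200C were close to the array medians, so they cannot be told from background. MIR141 (-0.12), MIR200A (-0.19), MIR200B (-0.03) and MIR429 (0.03) of the same list did not pass. Nor did MIR135B (-0.49, adjusted p = 0.0543), MIR106B (-0.49), MIR29A (-0.45) and MIR155 (-0.03). None of the 3 calls held when any 1 array was left out or when all probe sets were fitted and adjusted together. In the latter fit 6 of the 34 had an unadjusted p under 0.05, against 3128 of all 14884 genes.

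Genes that overlap a named microRNA gene were looked up after the values were seen, and 10 of 16 microRNA genes had a measured one. GDF15, a stress-induced cytokine gene that holds MIR3189, fell by 0.47 (SE 0.07, adjusted p = 0.024), the same direction as its microRNA. SREBF1, the lipid synthesis regulator that holds MIR33B, fell by 0.46 (SE 0.08, adjusted p = 0.0313), the opposite direction. MIR33B was dim, with control values of 4.18 and 4.16, below the array medians. KDM1A, a histone demethylase gene that overlaps MIR3115, had a change of 0.00 ± 0.07 (SE, adjusted p = 0.992). MIR181A1HG, which overlaps MIR181B1, had a change of -0.42, the same direction, but did not pass (adjusted p = 0.0702). ELMO3 (-0.15, overlapping MIR328), NANOS3 (0.17, MIR181D) and UGCG (-0.08, MIR4668) did not pass either. Pairs in which both genes were called thus had the same sign (MIR3189 with GDF15, MIR31 with MIR31HG) or opposite signs (MIR33B with SREBF1).

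The genes whose pattern over the 4 arrays was most like that of each member were found by the root mean square difference of gene-centred log2 values. Nearest to MIR21 were CHMP4C, an ESCRT-III subunit gene of the abscission checkpoint (0.01), the thrombin receptor gene F2R (0.02) and L3MBTL3 (0.02). CHMP4C had 8.79 and 8.79 with verticillin A, against 9.38 and 9.53 in control. Nearest to MIR221 were the centromere gene CENPX, BABAM1 and the RNA export gene ALYREF, at distances of 0.02 each. Nearest to MIR222 were SLF1, the cytokinesis gene CEP55 and CKS2, a partner of cyclin-dependent kinases, at 0.01 each. CKS2 had 11.88 and 11.93 with verticillin A, against 11.47 and 11.42 in control. With 4 arrays many genes share such a pattern, and the likeness is a description.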

How the data were processed

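Biotinylated cDNA from total RNA was hybridised to 4 Affymetrix whole-transcript arrays, per the labels' protocols. The authors deposited 1 log2 value per probe set and array, made with GCRMA per the submitters' processing notes; its version is not given in the sources used here, nor is any filter. That the scale is log2 was read from the range of the deposited values, 2.60 to 14.47. GCRMA by default equalises array distributions, which would hide a shift in the RNA content of a cell.

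Of 53617 probe sets the platform annotation names 1 gene for 16098, several for 0 and none for 37519. The 16098 were matched by gene identifier to RefSeq (GRCh38.p14). Genes with several probe sets (779) were represented by the brightest, which left 14884. No detection calls were used, so a dim value cannot be told from background, and 2 arrays per group limit the precision.

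All genes were fitted with limma 3.58.1 (R 4.3.3, lmFit and eBayes, 2 residual and 3.43 prior degrees of freedom) with treatment as the factor. Adjusted p is Benjamini-Hochberg over all genes, threshold 0.05, and a log2 change is verticillin A minus control with its moderated SE. The fit was tested on simulated data whose set changes were larger than most changes named here, so that test does not cover smaller ones. The members and lists were chosen with earlier results of these data known. Named genes are the members, their measured neighbours and seed partners, up to 8 called genes per list, up to 5 called microRNA genes per direction and the 3 most similar genes per member; other list members were named after their values were seen. Alternatives were other scalings, a filter on dim genes, averaged or all probe sets, an intensity trend, the replicate block and leaving out each array.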

Additional observations from a re-analysis of the deposited data

How the results depend on the processing

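The differences of MIR21, MIR221 and MIR222 kept their sign under all 11 alternatives. Of these, 5 leave the values as they are by construction, and leaving out 1 array cannot reverse groups that do not overlap. The kept sign is therefore no support. The difference of MIR222 moved by more than its replicate SD only after median centring, to 0.48. Median centring shifted all changes by 0.04. The count of calls over all genes, 1287, was 2399 with the dimmest 50% of genes left out, 2428 with an intensity trend, 592 with the replicate block and 18 with all probe sets fitted and adjusted together. With an array left out it was 0 to 153. With all probe sets together the called genes numbered 0 for miR-21 targets, 1 for miR-221 and miR-222 targets, 0 for biogenesis genes, 0 for upstream regulators, 0 for the colorectal microRNA genes and 0 for other microRNA genes. With the intensity trend they were 3 for biogenesis genes, 11 for regulators, 6 for the colorectal microRNA genes and 82 for other microRNA genes, and with the dim filter 2 for biogenesis genes. With an array left out the counts were 0 for miR-21 targets, biogenesis genes and colorectal microRNA genes, 0 to 1 for miR-221 and miR-222 targets and regulators, and 0 to 10 for other microRNA genes. Each such fit has 1 residual degree of freedom fewer, and the cause of the other shifts was not tested.

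The replicate numbers share only a number: deviations of equally numbered arrays correlated at 0.01 across genes, and nothing in the labels pairs them. With the replicate block the calls numbered 1 for miR-221 and miR-222 targets, 0 for biogenesis genes, 3 for regulators and 26 for other microRNA genes. In this fit 2 of the 21 biogenesis genes had an unadjusted p under 0.05, against 3839 of all 14884 genes. Of the 39 other genes named by rule, DHX40, VMP1 and MIR590 had no call to lose. With all probe sets fitted and adjusted together 35 lost their call and DDIT4 alone kept it. With the replicate block 12 lost their call. None that was called changed direction, but several alternatives leave the changes as they are. Leaving out 1 array cannot reverse a gene whose groups do not overlap, so the kept direction is no support.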
